A study of Mus musculus with 2 samples.

Results

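Cells carrying transcripts of the melanin pathway were taken from 2 droplet single-cell RNA-seq libraries of mouse peripheral retina at E13.5. The cells were selected on measured values: a cell was included when its raw counts of Dct, Pmel and Mlana added up to at least 2 unique molecular identifiers (UMIs, the tags that count single captured RNA molecules). Barcodes entered only with at least 500 detected genes and at most 10% of UMIs from mitochondrially encoded genes. Of 9395 such cells, 134 met the rule. They were 87 of 5883 cells of the pigmented library (1.48%, 95% Clopper-Pearson interval 1.19 to 1.82) and 47 of 3512 cells of the albino library (1.34%, 0.985 to 1.78). They are called pigment-gene cells here. The 3 genes used to choose them are called the selection genes, and their levels are a description of the choice.

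The study asks how albinism affects neurogenic output from the ciliary margin of the retina, with an emphasis on cyclin D2. Both libraries came from mice carrying the α-Cre driver and a TdTomato reporter, on a pigmented or an albino background. Each library pooled the optic cups of 3 embryos, dissociated with papain and sorted for the red fluorescence. α-Cre acts in the peripheral neural retina, so the sort was made for that lineage and not for the pigment epithelium. The strain entry of the pigmented library reads Tyrc2j, the name of an albino-type tyrosinase allele, and that of the albino library reads Swizz ICR. The groups used here follow the sample titles. With 1 library per group, no difference between the libraries has a replicate check, and no p-value is given. Each interval is an exact 95% interval and covers counting error alone.

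The retinal pigment epithelium (RPE) is the single cell layer behind the neural retina, and at the rim of the optic cup it is continuous with the ciliary margin. Melanin is made inside melanosomes. Pmel forms the fibrils on which it is laid down, Tyr (tyrosinase) catalyses the rate-limiting oxidation of tyrosine, and Tyrp1 and Dct act on later intermediates. Mlana is a melanosomal membrane protein that takes part in Pmel maturation. Mitf is the transcription factor that drives this programme in RPE and in melanocytes, and Otx2 acts with it in the RPE. Melanocytes come from the neural crest and express Sox10, Ednrb and Kit.

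The pigmented library held 69965728 UMIs and the albino library 46271969, with a median of 10448 and 11239 UMIs per included cell. A set of very deep barcodes stood apart in the albino library and touched every result over all of its members. Above 50000 UMIs lay 38 of all 3512 included barcodes of the albino library and 14 of 5883 of the pigmented library. Among the 47 albino pigment-gene cells, 20 had more than 50000 UMIs, against 0 of 87 in the pigmented library. In 19 of those 20, only 2 to 12 selection UMIs were found among 78547 to 208279 UMIs, a median of 0.356 per 10000. All 19 carried UMIs of the ganglion cell, retinal progenitor, macrophage, mesenchyme and surface ectoderm and lens marker lists at once. Of the members at or below 50000 UMIs, 0 of 27 albino and 0 of 87 pigmented cells did so. The remaining deep member, the one with most selection UMIs, also carried all of these lists, with 2 ganglion cell, 83 progenitor, 5 macrophage, 33 mesenchyme and 24 surface ectoderm and lens UMIs among 100443. The mitochondrial share of the 19 was 0.0747% to 0.187%, against 0.941% to 7.93% in the 27 albino members at or below 50000 UMIs. Tyrobp, a myeloid adaptor, and Krt15, an epithelial keratin, had UMIs in 19 of 19 of them and in 0 of 27 and 0 of 87 members at or below 50000 UMIs. Mitf had UMIs in 0 of the 19, in 15 of those 27 albino and in 53 of the 87 pigmented members. The part of barcodes that captured several cells in these values was not tested. The Scrublet doublet caller marked 168 barcodes of the pigmented library (2.76%) and 4 of the albino library (0.109%), none of them a pigment-gene cell. The matrices shared 8 barcodes, none of them a member.

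Without barcodes above 50000 UMIs, a limit chosen after seeing the data, the albino share was 27 cells (0.777%, 0.513 to 1.13) and the pigmented share stayed at 1.48%. The ratio of albino to pigmented shares was 0.905 (0.621 to 1.30) with all barcodes and 0.524 (0.327 to 0.816) without the deep ones. When each cell was thinned to 5000 UMIs, 45 of 5514 pigmented cells (0.816%) and 18 of 3215 albino cells (0.560%) met the rule, a ratio of 0.686 (0.374 to 1.21). This left out 369 and 297 shallower cells. The interval of the ratio lay below 1 only without the deep barcodes. The median depth of members was 12639 UMIs in the pigmented library and 25418 in the albino library, or 13996 without the deep barcodes.

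The count of selection UMIs split the members widely. Exactly 1 selection UMI, just outside the rule, was found in 117 pigmented and 54 albino cells. Just inside it, 16 and 10 cells had 2 UMIs. A further 14 and 12 cells had 3 to 4, and 30 and 12 had 5 to 19. The remaining 27 and 13 cells had 20 or more and are called strong pigment-gene cells. They made up 0.459% (0.303 to 0.667) of the pigmented and 0.370% (0.197 to 0.632) of the albino library. Members held 1853 of the 1970 selection UMIs of the pigmented library (94.1%) and 1904 of 1958 of the albino library (97.2%). The top pigmented cell held 129 of them (6.96%). The top albino cell held 948 (49.8%), with a mitochondrial share of 2.76%. It is 1 of the strong cells, and albino values below are given with and without it where it matters.

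**Figure D1:**
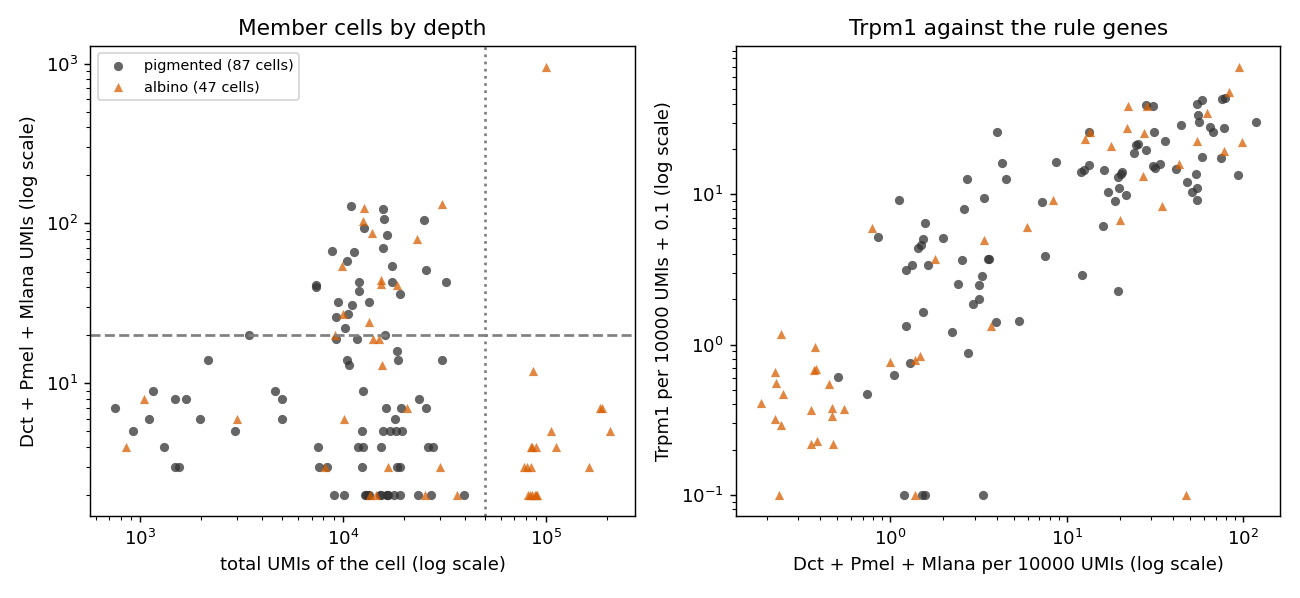
Left, selection UMIs (Dct, Pmel and Mlana summed, log axis) against total UMIs (log axis) for each pigment-gene cell, 1 point per cell, with a dashed line at 20 selection UMIs and a dotted line at 50000 UMIs; right, Trpm1 against the selection genes, both per 10000 UMIs on log axes, with 0.1 added to Trpm1. To the right of the dotted line lie 19 albino cells with 2 to 12 selection UMIs and the top cell with 948.

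The label was checked with Trpm1, a cation channel gene of pigment cells that Mitf activates and that the rule did not use. Trpm1 UMIs were present in 83 of 87 pigmented members and in 44 of 47 albino members, or 25 of 27 without the deep barcodes. After thinning to 5000 UMIs, 26 of 26 pigmented and 13 of 13 albino strong cells still had one. The background was read in cells with at least 20 UMIs of 8 ganglion cell genes, which should lack the gene. Of these ganglion-marker cells, 7 of 1149 (0.609%) and 5 of 1038 (0.482%) had a Trpm1 UMI after thinning. The unthinned shares in the same cells were 1.74% and 1.64%, at median depths of 12362 and 13966 UMIs. In cells with several UMIs of the ciliary margin markers Wls, Gja1, Msx1 and Wfdc1 that were not members, the thinned shares were 19.7% (121 of 614) and 18.2% (49 of 269). Unthinned, the shares in these cells were 46.4% and 39.8%, so Trpm1 was not particular to members. Of the pigmented members with 2 to 19 selection UMIs, 36 of 46 had one (78.3%, and 91.3% unthinned). Of the albino ones 13 of 31 did (41.9%, and 93.5% unthinned), or 10 of 12 (83.3%) without the deep barcodes. The label thus held for the strong cells. Among albino members with 2 to 19 selection UMIs, the thinned share depended on the deep barcodes. For the rule itself the same background was low: 2 or more selection UMIs were found in 1 of 1168 pigmented (0.0856%) and 1 of 1061 albino (0.0943%) ganglion-marker cells below 50000 UMIs. With the deep barcodes, 20 of 1093 albino ganglion-marker cells (1.83%) met it.

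Among strong cells the selection genes ran over wide ranges. Dct lies on chromosome 14 (118012790 to 118052244, minus strand, GRCm38), Pmel on chromosome 10 (128704195 to 128720238, plus strand) and Mlana on chromosome 19 (29697824 to 29708634, plus strand). Exons of Pmel overlap those of Cdk2 and Dgka on the other strand, and the sources do not state if reads were counted by strand. Levels are counts per 1000000 UMIs of the cell (CPM). In the 27 pigmented strong cells, Dct was 291 at the lowest, 1506 at the median and 3623 at the highest, and Pmel was 497, 1661 and 8204. Mlana was 0, 159 and 1746, with UMIs in 19 cells. In the 13 albino strong cells, Dct was 657, 1804 and 7172, Pmel was 446, 1438 and 5848, and Mlana was 0, 217 and 573. The ranges of the libraries overlapped for all 3 genes.

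Promoter sequences of pathway genes were read to show what the leading members have in common at the sequence level. The genes were chosen after their values were seen. RefSeq promoters on GRCm38.p6 were searched for 2 forms of the E-box bound by Mitf and related factors. The first is CATGTG, which reads as CACATG on the other strand, and the second is CACGTG, which is its own reverse complement. The core recognised by Otx proteins, TAATCC, was searched as well and reads as GGATTA on the other strand. Both strands were searched over 300 bases, from 250 before the transcript start to 50 after it. Matches of CATGTG on the 2 strands can overlap each other, and the 3 motifs were counted separately. CATGTG was present in 10 of the 24 promoters found (41.7%), which belong to 9 of 17 genes. Pmel, Mlana, Slc45a2, Gpr143, Bace2, Spon1 and Rab38 had no entry. In all 32851 promoters of the table the share was 14.2%. CACGTG was in 8.33% of the 24 against 7.15%, and TAATCC in 20.8% against 7.06%. The 250 bases before the start are shown for 4 genes with a CATGTG match and for Gpnmb, which has none. They lie at chr7:87493513-87493762 (Tyr, minus strand), chr14:118052247-118052496 (Dct, minus strand), chr7:64153585-64153834 (Trpm1, plus strand), chr11:120442381-120442630 (Tspan10, plus strand) and chr6:49036268-49036517 (Gpnmb, plus strand). Capitals mark motif matches, and each is written 5′ to 3′ on the strand of the gene.
Tyr: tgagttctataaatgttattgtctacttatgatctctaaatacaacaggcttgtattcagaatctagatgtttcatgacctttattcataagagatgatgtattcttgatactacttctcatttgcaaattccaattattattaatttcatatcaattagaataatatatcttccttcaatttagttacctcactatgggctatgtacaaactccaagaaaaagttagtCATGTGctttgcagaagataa
Dct: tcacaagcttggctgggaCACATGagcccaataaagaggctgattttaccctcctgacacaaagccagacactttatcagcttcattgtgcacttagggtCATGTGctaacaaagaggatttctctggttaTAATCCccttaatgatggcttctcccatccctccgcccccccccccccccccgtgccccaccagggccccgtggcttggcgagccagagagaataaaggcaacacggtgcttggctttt
Trpm1: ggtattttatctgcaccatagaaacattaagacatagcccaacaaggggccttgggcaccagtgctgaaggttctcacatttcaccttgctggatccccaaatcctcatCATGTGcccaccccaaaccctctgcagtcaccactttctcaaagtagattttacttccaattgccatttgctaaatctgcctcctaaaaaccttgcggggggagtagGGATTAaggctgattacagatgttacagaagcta
Tspan10: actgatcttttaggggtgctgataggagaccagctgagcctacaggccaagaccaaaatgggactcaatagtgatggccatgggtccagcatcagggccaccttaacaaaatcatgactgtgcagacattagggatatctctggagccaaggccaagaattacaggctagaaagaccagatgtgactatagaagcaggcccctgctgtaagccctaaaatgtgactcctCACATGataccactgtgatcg
Gpnmb: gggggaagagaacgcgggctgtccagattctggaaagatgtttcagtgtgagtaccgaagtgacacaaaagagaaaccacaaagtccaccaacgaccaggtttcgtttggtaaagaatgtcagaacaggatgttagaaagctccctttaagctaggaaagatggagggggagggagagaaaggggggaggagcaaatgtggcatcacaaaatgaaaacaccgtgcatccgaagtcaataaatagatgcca

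Positions count from the transcript start to the first base of the match. Tyr and Tspan10 had the CATGTG match at the same distance, -21. Dct had it at -232 and -150 with TAATCC at -119. The first Trpm1 promoter, the one shown, had it at -141 with TAATCC at -34. The second Trpm1 promoter had CATGTG at 36 and CACGTG at -229, without TAATCC. Tyrp1 had CATGTG at -46, Rlbp1 and the first Otx2 promoter at -124, Oca2 at -186 and Slc24a5 at -13. No CATGTG was found in the windows of Mitf, Pcp4, Slc7a8, Rab27a, Tfec, Slc38a8 or Krt18. A match is a run of letters and no measure of binding.

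Strong cells were compared with ciliary-margin-marker cells of the same library, the neighbouring tissue in the sort. These are 624 pigmented and 276 albino non-members, and they are a range of marker UMIs, not a type. A gene counts as higher or lower when the ratio of summed CPM is at least 2-fold in both libraries. By that rule 10.8% of 4754 genes were higher (513) and 5.15% of 4272 lower (220). Without the top cell of each library, an alternative chosen after seeing the data, 324 of 3903 were higher (8.3%) and 192 of 3680 lower (5.22%). Of these, 313 and 159 were shared with the comparison over all strong cells.

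Tyr had the clearest ratio of the named genes. Of 25 listed genes of melanin synthesis and the melanosome, 12 were higher in both libraries, beside 10.8% of all genes compared. A further 10 had under 20 UMIs in the strong cells, too few to be compared. That minimum is reached more easily by genes that are high in strong cells, so counts of higher genes are given here over all listed genes, and they describe the lists without supporting them. The medians over all 25 genes on the log2(CPM + 1) scale were 1.31 in the pigmented and 2.91 in the albino library, against 0.07 and 0.15 over all genes compared. Tyr (chromosome 7, 87424771 to 87493512, GRCm38) was 0 CPM in the lowest, 87.9 in the median and 2370 in the highest of the 27 pigmented strong cells, with UMIs in 18. In the 13 albino strong cells it was 0, 259 and 1182, with UMIs in 10. Summed, Tyr was 204 CPM against 0.188 in the pigmented ciliary-margin-marker cells, where 2 UMIs were found, a ratio of 1084 (290 to 9114). In the albino library it was 575 against 0.200 from 1 UMI, and 347 without the top cell, which held 61.0% of the albino Tyr UMIs. The strong cells and comparison cells were thus far apart in both libraries, but the size of the ratio rests on very few UMIs in the comparison cells. Counts at the 3′ end do not read the base changes of Tyr alleles, so the Tyr level is no check of genotype.

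Tyrp1 (chromosome 4, 80834123 to 80851719) was 119 CPM against 0.282 (3 UMIs; ratio 422, 136 to 2125) and 403 against 0.200 (1 UMI), or 190 without the top albino cell. It had UMIs in 20 of 27 and 10 of 13 strong cells. Oca2, an anion channel of the melanosome, was 141 against 4.05 (34.7-fold, 22.8 to 53.2) and 228 against 5.0 (45.6-fold, 28.3 to 75.4), the latter 140.8 without the top albino cell. Slc45a2, a melanosomal transporter, was 42.4 against 0.282 and 98.2 against 0, at least 164-fold higher with the floor set at 3 UMIs over the comparison cells. Gpr143, the melanosomal receptor mutated in ocular albinism, was 23.9 against 0.0942 and 49.1 against 0, at least 81.8-fold higher. Without the top albino cell it was 27.1, and its UMIs were then too few to be compared. Trpm1 (chromosome 7, 64153835 to 64269775) had UMIs in every strong cell. Its levels were 890, 2119 and 4302 CPM in the lowest, median and highest pigmented cell and 821, 2550 and 6979 in the albino cells. Summed, it was 38.2-fold higher (34.3 to 42.6) in the pigmented and 97.4-fold higher (84.0 to 113) in the albino library, or 59.7-fold (50.6 to 70.6) without the top albino cell.

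The melanosome transport genes were not of 1 kind. Rab38 and Rab27a are small GTPases of melanosome biogenesis and movement. Rab38 was 390 against 50.3 and 305 against 35.6, 7.75-fold and 8.57-fold. Rab27a was 87.5 against 0.282 and 144 against 0.200. Slc24a5, a cation exchanger of the melanosome or its precursors, was 217 against 105 and 246 against 107, 2.08-fold and 2.30-fold. Against all non-members Slc24a5 was 1.59-fold and 1.63-fold and did not meet the rule. Bace2, the protease that trims Pmel, was 61.0 against 0.565 and 182 against 0.200, the latter 92.1 without the top albino cell. Slc7a11, the cystine transporter known for its part in pheomelanin, was 66.3 against 6.12 and 98.2 against 4.20, and 32.8 in the pigmented library without its top cell. Genes of the same list that serve lysosome-related organelles in many cell types did not meet the rule: against non-members Myo5a was 1.58-fold and 1.86-fold, and Ap3b1 1.64-fold and 2.28-fold.

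**Figure D2:**
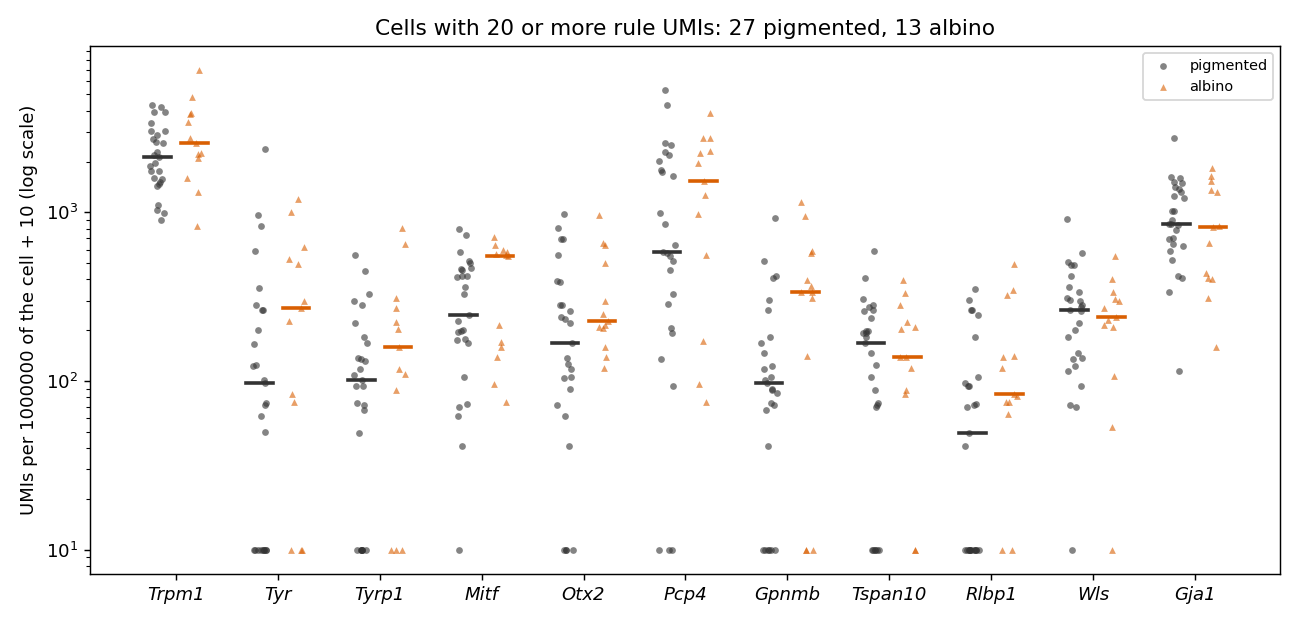
Levels of selected genes in single strong pigment-gene cells (UMIs per 1000000, with 10 added, on a log axis), 1 point per cell for the 27 pigmented and 13 albino cells, with bars at the median over cells. Trpm1 is above 0 in every cell, while Tyr lies at 0 in 9 of 27 pigmented and 3 of 13 albino cells.

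Several regulators of RPE fate were higher. Mitf (chromosome 6, 97807052 to 98021349) had UMIs in 26 of 27 and 13 of 13 strong cells, with 0, 237 and 791 CPM in the lowest, median and highest pigmented cell and 65.4, 542 and 702 in the albino cells. It was 35.5-fold higher (26.4 to 47.9) and 53.5-fold higher (36.8 to 79.3) than in ciliary-margin-marker cells. Tfec, a Mitf relative expressed in RPE, was 31.8 against 0.942 and 31.6 against 0.400, and 48.7 in the albino library without its top cell. Otx2 (chromosome 14, 48657677 to 48673819) was 225 against 25.6 (8.80-fold) and 523 against 24.2 (21.6-fold), or 287 without the top albino cell, with UMIs in 23 of 27 and 13 of 13 cells. Nr2f2, an orphan nuclear receptor of the dorsal optic cup and RPE, was 109 against 50.8 and 126 against 54.4. Tead1, the DNA-binding partner of Yap, was 122 against 57.3 and 203 against 58.6. Pax6, shared by RPE and retina at this stage, differed by less than 2-fold, at 737 against 564 and 715 against 561. Otx1 also missed the rule here, at 125 against 72.1 and 66.6 against 59.0. Nr2f1 was lower, 50.4 against 242 and 119 against 274. Without the top albino cell Otx1 was 37.9 and Nr2f1 27.1 there. In all, 5 of the 10 listed RPE regulators were higher and 1 lower, beside 10.8% higher and 5.15% lower of all genes compared. Against all non-members 7 of 10 were higher and none lower, with 11.2% of genes higher and 8.11% lower in that comparison.

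Of 30 listed genes of RPE function, 8 were higher, beside 10.8% of all genes compared. A further 21 had too few UMIs in the strong cells to be compared. Without the top cell of each library, 7 were higher and 1 lower, beside 8.3% higher and 5.22% lower of all genes compared. Rlbp1, the retinaldehyde-binding protein of the visual cycle, was 71.6 against 0.282 (3 UMIs) and 196 against 0.200 (1 UMI), with UMIs in 15 of 27 and 11 of 13 strong cells. It was 119 without the top albino cell. Rdh5, a retinol dehydrogenase, was 21.2 against 1.88 and 42.1 against 2.80. Stra6, the retinol uptake receptor, was 164 against 44.4 and 333 against 41.6, the latter 108 without the top albino cell. The simple-epithelium keratins were higher together. Krt18 (chromosome 15, 102028180 to 102032027) was 729 against 9.70 (75.2-fold, 59.8 to 95.2) and 670 against 8.41 (79.7-fold, 56.8 to 114), and Krt8 was 37.1 against 3.39 and 66.6 against 2.0. Timp3, a matrix metalloproteinase inhibitor of the RPE basement membrane, was 29.2 against 4.33 and 66.6 against 3.60, and its UMIs were too few to be compared without the top cells (21.7 in the albino library). Trpm3, a cation channel gene, was 517 against 218 and 687 against 202. Rpe65, the isomerase of the visual cycle, Rgr, Best1 and Mertk had 0 UMIs in the strong cells of both libraries.

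Other leading genes lie outside the melanin list. Pcp4 (chromosome 16, 96467606 to 96525793; Igsf5 exons overlap on the same strand), which encodes a small calmodulin-binding peptide, was 1074 against 3.11 (346-fold, 242 to 509) and 1820 against 2.0 (910-fold, 491 to 1908). Without the top albino cell it was 1316. It had UMIs in 24 of 27 and 13 of 13 strong cells, with medians of 576 and 1527 CPM. Gpnmb (chromosome 6, 49036546 to 49070929), a glycoprotein related to Pmel, was 138 against 0.188 (2 UMIs; ratio 732, 193 to 6207) and 635 against 0, at least 1057-fold higher. It was 357 without the top albino cell. Tspan10 (chromosome 11, 120442644 to 120446950), a tetraspanin, was 133 against 0, at least 469-fold higher, and 231 against 0.400 (2 UMIs; ratio 578, 154 to 4875). Slc7a8, a neutral amino acid transporter, was 228 against 0.659 and 551 against 0.801. Spon1, a secreted matrix protein, was 318 against 1.32 and 389 against 1.40. Ogn, a small leucine-rich proteoglycan, was 114 against 1.04 and 186 against 0.400. Mgll, a monoacylglycerol lipase, was 114 against 1.32 and 238 against 1.60. Cryab, a small heat-shock protein also abundant in lens, was 103 against 2.26 and 217 against 1.0. The genes Npr3, Slc6a15 and Uap1l1 completed the 20 with the clearest ratios, between 29.5-fold and 56.1-fold. Leaving out the top albino cell brought Slc7a8 to 314, Tspan10 to 146 and Mgll to 152 CPM. Among the albino values, the top cell held 29.3% to 69.6% of the UMIs of each of these 20 genes. Pcp4, Tyr, Gpnmb, Slc7a8 and Tyrp1 led the same ranking when the top cell of each library was left out.

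Of 16 listed lysosomal genes, whose organelle shares its biogenesis with melanosomes, 9 were higher against each set of comparison cells, beside 10.8% of all genes compared against ciliary-margin-marker cells and 11.2% against non-members. The list's median log2 ratio was 1.19 and 1.55 against ciliary-margin-marker cells. Cd63, a tetraspanin that sorts Pmel, was 698 against 183 and 775 against 158 in ciliary-margin-marker cells. Cathepsin L (Ctsl) was 748 against 249 and 638 against 219. The hydrolase gene Hexa was 191 against 32.0 and 161 against 29.2, the latter 103 without the top albino cell. Summed over its 16 genes, the list was 3514 and 3823 CPM in strong cells and 1232 and 1226 in non-members.

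Ciliary margin genes were also high in strong cells. The marker rule used for the comparison cells was met by 26 of 27 pigmented and 12 of 13 albino strong cells, so values in this paragraph are against all non-members unless stated. Wls, which carries Wnt proteins to the cell surface, was 260 against 7.15 and 228 against 7.17, and Gja1, the gap junction protein connexin 43, was 939 against 44.7 and 999.6 against 25.1. In single cells Gja1 was 105, 847 and 2735 CPM in the lowest, median and highest pigmented cell and 149, 811 and 1831 in the albino cells. Bmp4 and Bmp7 were higher (58.4 against 4.57 and 31.6 against 3.95; 76.9 against 5.66 and 133 against 4.99). Without the top albino cell they were 16.2 and 70.4 there, and Bmp4 then missed the rule against ciliary-margin-marker cells. Ccnd2, which encodes cyclin D2, was 207 against 88.8 and 199.9 against 56.6. It was not higher than in ciliary-margin-marker cells, at 207 against 269 (0.770, 0.607 to 0.964) and 199.9 against 199.9 (1.0, 0.752 to 1.31). The other distal genes Wfdc1 (23.9 against 68.1 and 7.01 against 55.2) and Zic1 (26.5 against 72.4 and 10.5 against 61.4) were lower. Of the 12 listed ciliary margin genes 5 were higher and 2 lower, beside 11.2% higher and 8.11% lower of all genes compared. Of 18 listed Wnt pathway genes 5 were higher and 1 lower, beside the same shares over all genes. Most of the other Wnt genes had too few UMIs to be compared. Axin2, a feedback inhibitor induced by β-catenin, was 26.5 against 5.88 and 66.6 against 5.45, the receptor gene Fzd4 63.7 against 3.24 and 84.2 against 2.48, and the secreted inhibitor Sfrp1 300 against 37.8 and 456 against 28.5. Without the top albino cell Axin2 was 37.9, Fzd4 32.5 and Sfrp1 259.9 there. Lef1 and Wnt5a were also higher, and Fzd5, a receptor of the central retina, was 0 against 73.0 and 7.01 against 62.4.

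Neural retina genes were lower. Of 11 progenitor genes, 7 were lower than in non-members and 8 lower than in ciliary-margin-marker cells, and none was higher. Over all genes compared, 8.11% were lower than in non-members and 5.15% lower than in ciliary-margin-marker cells. Against ciliary-margin-marker cells, Sox2, a transcription factor of neural progenitors, was 7.96 against 145 and 14 against 173, and the growth factor gene Fgf15 was 5.30 against 177 and 0 against 268. Sfrp2, a secreted Wnt modulator, was 172 against 1318 (0.131, 0.101 to 0.167) and 91.2 against 1554 (0.0587, 0.0383 to 0.0861). One pigmented cell held 53.8% and one albino cell 69.2% of those Sfrp2 UMIs. Ccnd1, cyclin D1, was 95.5 against 587 and 42.1 against 694. Zic1, Rorb, Ckb, Id1, Shisa2, Dkk3, Tmsb4x and Plagl1 made up the rest of the 10 clearest lower genes. Of 6 neurogenic genes 4 were lower than in non-members: Atoh7, the factor required for ganglion cells, was 13.3 against 1811 and 73.7 against 1742, and Neurog2 was 0 against 91.5 and 0 against 72.3. Of 8 ganglion cell genes 7 were lower. Their sum was 45.1 and 568 CPM against 2345 and 4351, and 1 albino strong cell, which also met the ganglion-marker rule, held 94.7% of the albino Stmn2 UMIs.

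Cell cycle genes had lower sums than in non-members, and few cells set those of G2 and mitosis. The 16 G2 and mitosis genes summed to 1419 CPM in pigmented and 330 CPM in albino strong cells, against 2439 and 2162 in non-members. One pigmented cell held 68.6% of those 535 UMIs and one albino cell 64.9% of 94. The medians over cells were 87.9 and 49.8 CPM, with UMIs in 18 of 27 and 7 of 13 cells. Top2a, topoisomerase II of dividing cells, was 186 against 400 and 10.5 against 349. Of the 16 genes, 4 were lower by the rule in both libraries. The S phase list summed to 891 and 533 against 1419 and 1277, with 2 of 16 genes lower, beside 8.11% of all genes compared.

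**Figure D3:**
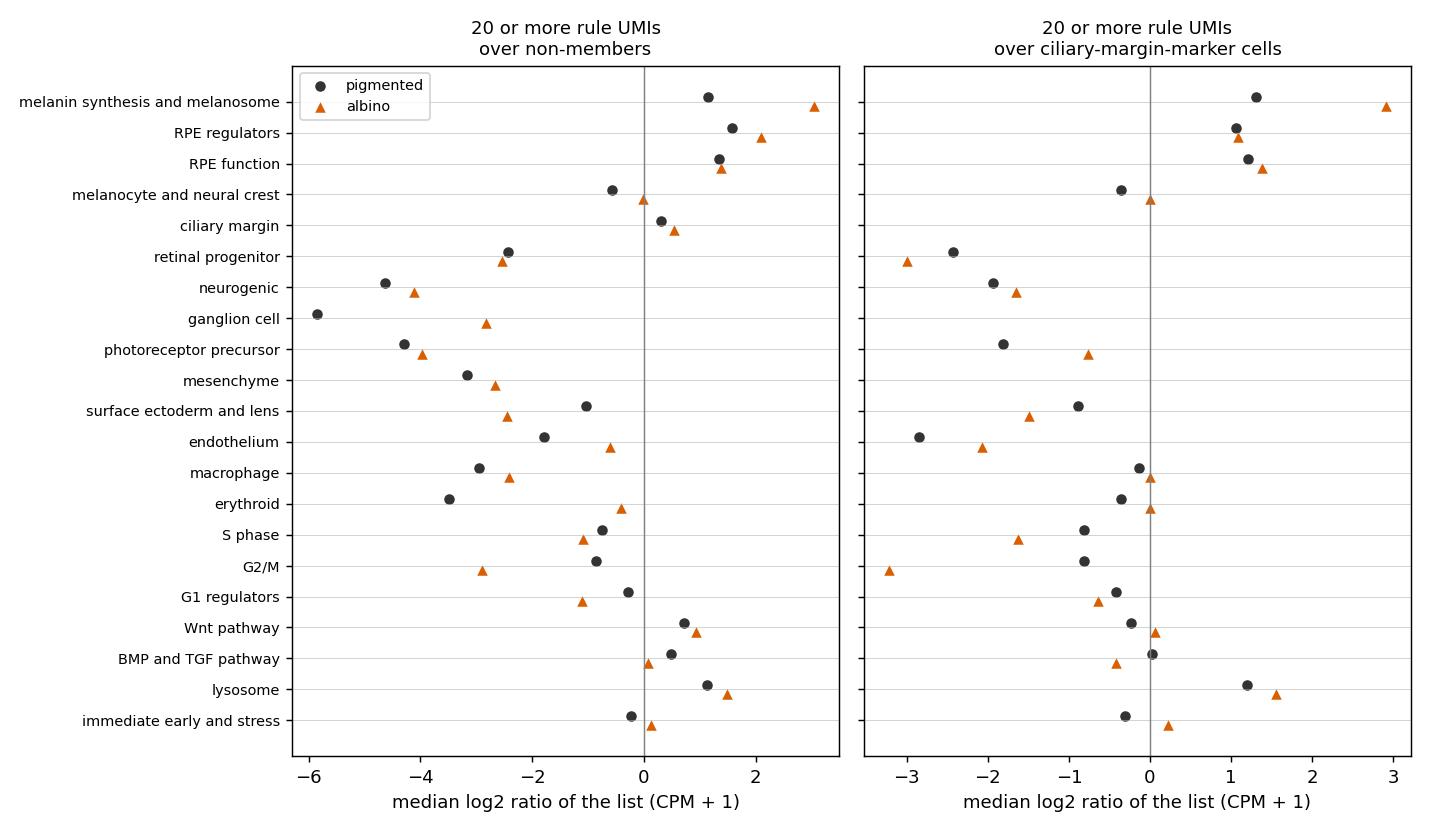
Median log2 ratio of CPM + 1 over the genes of each list, strong pigment-gene cells over non-members (left) and over ciliary-margin-marker cells (right), circles for the pigmented and triangles for the albino library. The right panel leaves out the 3 lists its comparison cells were chosen with. The melanin, RPE regulator, RPE function and lysosome lists lie above 1 in both panels and libraries, and the progenitor and neurogenic lists below -1.

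Most markers of other cell types were low or at 0 in strong cells, with exceptions given here. Of the photoreceptor precursor list, Crx, Prdm1 and Neurod4 had 0 UMIs, Neurod1 0 and 1, and Rxrg 8 and 0. Thrb went the other way. The strong cells held 1.26% and 2.25% of its UMIs, and made up 0.459% and 0.370% of cells. Of the melanocyte and neural crest list, Sox10, Ednrb, Foxd3, Erbb3, Cdh19 and S100b had 0 UMIs in both libraries. The list summed to 53.0 and 38.6 CPM against 24.4 and 28.6 in non-members, most of it Kit (34.5 and 24.6 CPM). Kit also occurs in retinal progenitors and was 11.3 and 17.6 CPM in non-members. Among surface ectoderm and lens genes Krt5, Krt14, Krt15, Cryaa and Cryba1 were at 0 and only Cryab was higher. Of the mesenchyme list only Dcn, a proteoglycan, was higher than in non-members, with UMIs in 8 of 27 and 4 of 13 strong cells. In the albino library it was 151 CPM, or 54.2 without the top cell. Macrophage genes summed to 10.6 and 17.5 CPM against 64.2 and 118, endothelial genes to 2.65 and 3.51 against 32.8 and 20.3, and erythroid genes to 2.65 and 0.

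The programme was graded across the count of selection UMIs. Barcodes above 50000 UMIs are left out here. In the pigmented library, Trpm1 was 11.3 CPM in cells with no selection UMI and 59.9, 212, 502, 859 and 2108 CPM in cells with 1, 2, 3 to 4, 5 to 19 and 20 or more. In the albino library it was 7.03, then 35.9, 189, 161, 1321 and 2496. Mitf was 2.82, 8.81, 53.9, 81.7, 88.9 and 281 in the pigmented bands, and in the albino bands it was 2.05, 5.79, 0, 0, 239 and 325. The albino bands with 2 and with 3 to 4 selection UMIs hold 4 cells each. Tyr was different: it stayed at 0 UMIs in the bands with 2 and 3 to 4 selection UMIs of both libraries, was 23.7 and 12.6 CPM at 5 to 19, and 204 and 347 at 20 or more. Tspan10 was 0 with 2 selection UMIs, 32.6 and 25.2 CPM at 5 to 19 and 133 and 146 at 20 or more. Unlike Tyr, it was found at 3 to 4, with 1 UMI in a pigmented cell with 3 selection UMIs.

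Ciliary margin genes were above the other cells already in pigmented members with 2 to 19 selection UMIs. In the albino library, each of the 4 cells with 3 to 4 selection UMIs had 0 Wls UMIs and 0 to 3 Gja1 UMIs. The 7 albino cells with 5 to 19 had 0 to 5 Wls and 0 to 15 Gja1 UMIs. Of the 4 albino cells with 2, 1 cell had 33 Gja1 UMIs and each other cell 1. The ciliary margin marker rule was met by 3 of 4, 2 of 4 and 6 of 7 albino cells in the 3 bands, from lowest to highest. The values that follow are of the pigmented library. Gja1 was 41.2 CPM with no selection UMI and 428, 385, 501 and 939 in the pigmented member bands. Wls was 6.85 and then 35.9, 64.2, 121 and 260. Ccnd2 was 85.2 with none and 234, 216, 178 and 207 in the member bands, so it was not graded among members. Sgk1, a kinase gene induced by stress and hormones, was 11.7 and then 187, 391, 320 and 642. Sfrp2 ran the other way, at 1299 with none, 1067 with 2, 485 with 3 to 4, 430 with 5 to 19 and 172 with 20 or more. Otx2 was 68.3, 75.9, 47.4 and 225 in the pigmented member bands against 85.4 with no selection UMI, so it was above that level only in the strong cells. The melanin list, which does not hold the selection genes, summed to 347 CPM with none and 704, 1121, 1606 and 3896 in the pigmented member bands. More than 1 selection UMI is also easier to reach in a deeper cell: the median depth was 13721 UMIs with 1 selection UMI and 15892 with 2 in the pigmented library, against 12043 in strong cells. The part of depth in the low bands was not tested beyond the thinned shares.

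**Figure D4:**
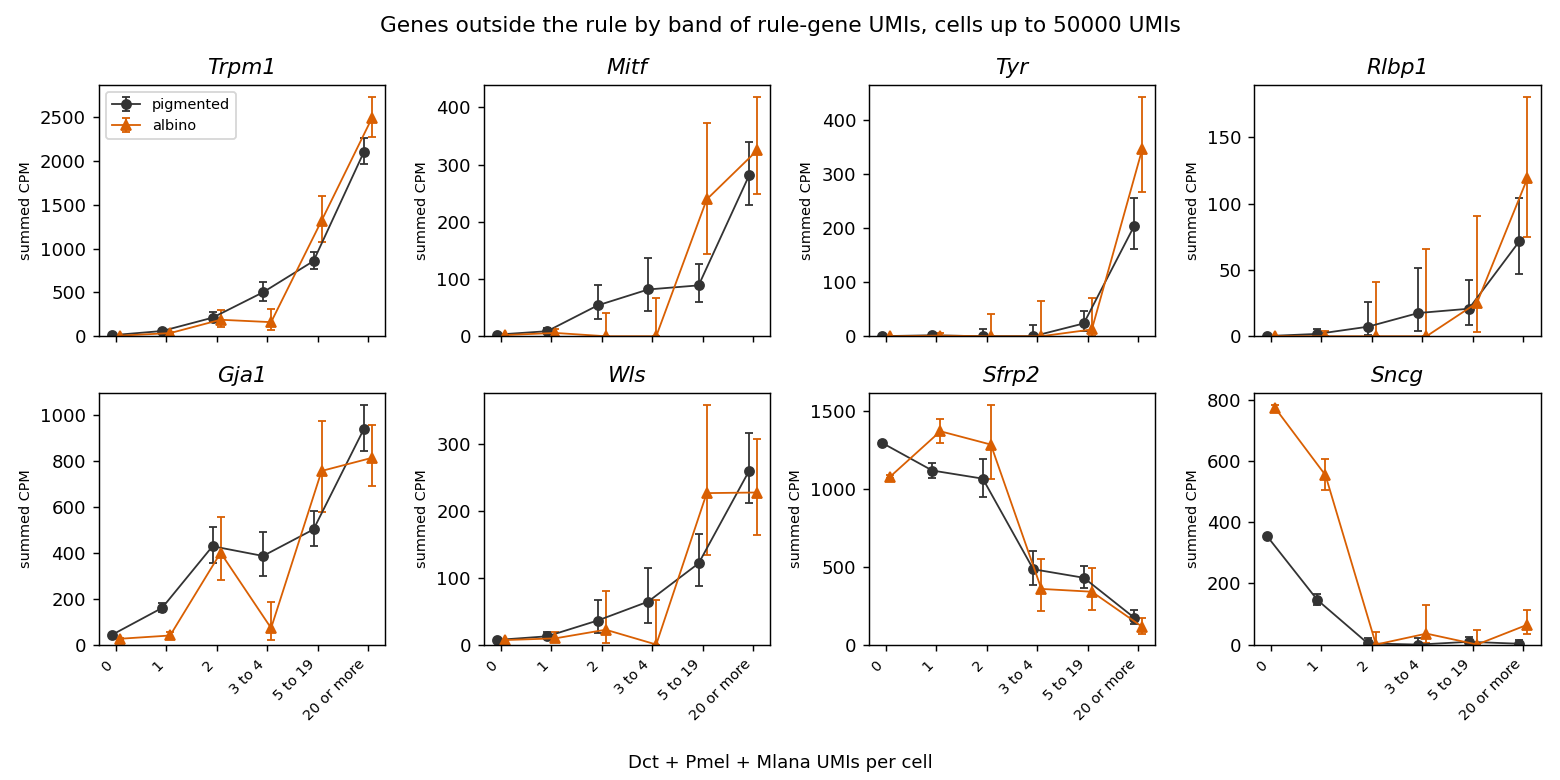
Summed level (CPM, linear axis from 0) of 8 genes by the count of selection UMIs per cell, barcodes above 50000 UMIs left out, by library, with exact Poisson 95% intervals. Trpm1 runs from 11.3 to 2108 CPM in the pigmented library across the bands, and Sfrp2 from 1299 to 172.

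Over all members against all other cells, 2.75% of 9610 genes were higher in both libraries (264) and 5.37% of 9927 lower (533). Without the deep barcodes 395 of 7437 were higher (5.31%) and 392 of 7444 lower (5.27%). Tyr was 73.0 against 0.219 CPM in the pigmented library (333-fold, 191 to 621) and 65.0 against 0.0919 in the albino library (707-fold, 271 to 2624). Trpm1 was 84.2-fold (77.1 to 91.9) and 68.2-fold (60.6 to 77.1) higher, and 189-fold in the albino library without the deep barcodes. Pcp4 was 174-fold and 165-fold higher. The clearest lower genes with all barcodes were Map1b, a microtubule protein of axons (67.9 against 645 and 124 against 927), and Rorb, a nuclear receptor of retinal precursors (198 against 1068 and 131 against 1024). The ciliary margin list shows what the deep barcodes did to such sums: 3 of 12 listed genes were higher with them and 7 without them. For the 10 RPE regulators the counts were 2 and 5, and for the 25 melanin genes 11 and 10. Members with 2 to 19 selection UMIs, taken alone and without the deep barcodes, had 154 of 5690 genes higher (2.71%) and 278 of 5907 lower (4.71%). Among them Trpm1 was 553 against 12.5 and 581 against 7.62, Krt18 140 and 133 CPM, Rab38 205 and 213 CPM, and Mitf 75 and 84.3 CPM.

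Members also held most of the UMIs of some genes in the whole library. Of all UMIs in included cells, members held 85.0% and 97.7% for Tyr, 90.0% and 96.0% for Tyrp1 and 82.5% and 99.0% for Gpnmb. The shares were 58.9% and 80.2% for Trpm1, 45.2% and 59.2% for Mitf and 24.7% and 26.1% for Wls. Otx2, also used by photoreceptor precursors, had 2.27% and 6.41% of its UMIs in members, and Slc24a5 1.64% and 5.65%.

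Between the libraries, the comparison of all members was dominated by the deep barcodes. In albino over pigmented members, 5.7% of 9613 genes were higher (548) and 23.3% lower (2238). Crabp1, a retinoic acid binding protein of young neurons, was 54.1 CPM in pigmented and 996 in albino members (18.4-fold, 14.3 to 24), and 7 of 8 ganglion cell genes were higher. Without the deep barcodes 250 of 7440 were higher (3.36%) and 314 lower (4.22%), and Crabp1 turned to lower. Of the 8 ganglion cell genes 5 were still higher without them (list median log2 2.24), and 1 albino strong cell holds most of the Stmn2 UMIs, as given above. Sex also differed in the pools: 45 of 47 albino members had Xist UMIs and none had Y-linked UMIs, while of the pigmented members 26 had only Xist and 33 only Y-linked UMIs. The libraries further differ in strain background, so none of these can be told apart from albinism.

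Without the deep barcodes, no melanin gene was lower by the rule in albino members. Of 25 listed, 4 were higher, with a median log2 ratio of 0.45 against 0.01 over all genes. Gpnmb was 56.7 CPM in pigmented and 176 in albino members (3.10-fold, 2.19 to 4.39), from 34 and 14 cells. Tyr was 73.0 and 158 (2.17-fold, 1.55 to 3.03), and the ratio of the means over single cells was 1.23. Trpm1 was 1.37-fold (1.24 to 1.51) and Mitf 1.36-fold (1.03 to 1.79). Otx1 was lower in albino members, 117 and 51.2 CPM (0.438, 0.263 to 0.697). Gas1, a growth arrest protein, was 467 and 327 CPM (0.699, 0.574 to 0.846). Gja1 and Wls were level, at 1.0 (0.864 to 1.16) and 1.10 (0.807 to 1.48). Ccnd2 was 206 and 129 CPM, a ratio of 0.627 (0.456 to 0.847), and missed the 2-fold rule.

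Among all strong cells, 372 of 4757 genes were higher in the albino library (7.82%) and 188 lower (3.95%). The top albino cell weighs on these sums, so the values below leave out the top cell of each library, with 4.1% of 3906 genes higher in albino cells (160) and 5.86% lower (229). Tyr was 2.49-fold (1.70 to 3.67), Gpnmb 3.12-fold (2.08 to 4.70) and Slc7a11 2.81-fold (1.26 to 6.44), the 3 of 25 melanin genes that met the rule. Slc7a11 missed the rule over all strong cells, and its pigmented level fell when the top pigmented cell was left out, as given above. The Tyr ratio also rests on that cell, which held 33.8% of the pigmented Tyr UMIs. Pigmented Tyr was 204 CPM with it and 139 without it. With only the top albino cell left out, Tyr was 347 CPM against 204, less than 2-fold. Without the top cells, Trpm1 was 1.20-fold, Krt18 0.999-fold and Gja1 0.918-fold. Otx1 was 126 and 37.9 CPM (0.302, 0.115 to 0.673). Ccnd2 was 191 and 125 CPM (0.651, 0.388 to 1.06), an interval that includes equality. Top2a, whose pigmented level rests on few cells, was 183 CPM from 67 UMIs in 8 of 26 pigmented cells and 5.41 CPM from 1 UMI in 12 albino cells. Id3, an inhibitor of bHLH factors, was 1464 and 726 CPM, and Glul, glutamine synthetase, 404 and 200.4 CPM. S100a1, a calcium-binding protein, was 98.3 and 287 CPM, and Ankrd44 73.7 and 195 CPM. These rest on 26 and 12 cells of 1 pool each.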

How the data were processed

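The members and gene lists were chosen with earlier results of these data known. Raw UMI counts per gene and barcode for 32285 genes were deposited by the authors. Cell Ranger 2.1.1 and mm10 stand in the submitters' processing notes, while Cell Ranger 5.0.1 stands in the matrices, per the file headers. Library preparation used a 3′ kit, per the labels. Cells were filtered as given in the report, and 134 and 110 barcodes fell under 500 genes and 188 and 136 above 10% mitochondrial UMIs. No columns of other samples were present (0), and a TdTomato count was not analysed here.

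Counts were summed over cells per library and scaled to CPM with Python 3.11.15, NumPy 2.4.6 and SciPy 1.17.1, and plotted with matplotlib 3.10.9. Scrublet was run in Scanpy 1.11.5 over all deposited barcodes. A gene was compared for higher levels with at least 20 UMIs in the members over both libraries, and for lower levels with at least 20 UMIs expected there from the comparison cells. The selection genes were left out. List medians use log2 ratios with 1 CPM added and cover every listed gene. Ratios carry conditional exact intervals, CPM exact Poisson intervals and shares Clopper-Pearson intervals, all 95% and covering counting error only. Against 0 UMIs the floor was 3 UMIs over the comparison cells. With 1 library per group no test was run. Ciliary-margin-marker cells had at least 4 UMIs of Wls, Gja1, Msx1 and Wfdc1, at most 2 of a set of mesenchyme genes and under 20 ganglion cell UMIs.

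Named genes were detected in at least 10% of the cells of each library with at least 50 UMIs, and were ranked by the interval bound nearest to 1: the 20 clearest higher and 10 lower, and 5 each way between libraries with no cell above 25% of the UMIs. The ranking took no mitochondrial, ribosomal protein, haemoglobin or sex-linked marker gene and no unnamed gene model. Every gene of the selection, melanin, RPE regulator and melanocyte lists with a result could also be named. Promoter sequences are from RefSeq (GRCm38.p6), and positions from GENCODE M21, which matched 326 of 327 genes looked up. On simulated counts over 9927 genes, the comparison of members with other cells recovered 100% of the genes changed 4-fold. The changed genes all had at least 50 expected UMIs, and the simulation had counting error but no spread between cells. It therefore cannot speak for genes with fewer UMIs or for sums that few cells set. Alternatives were other selection counts, cell filters, thinning, cell weights, UMI minimums and scaling, and 3 were added after seeing the data: without barcodes above 50000 UMIs, strong cells only, and strong cells without the top cell of each library.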

Additional observations from a re-analysis of the deposited data

Results flagged for a closer look

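Tyrobp, an adaptor protein of myeloid cells, went opposite ways in the 2 libraries when members were set against the other cells. In the pigmented library its ratio was 0, from 0 CPM in members against 10.8 CPM in the others, and in the albino library it was 2.09, from 46.8 against 22.3 CPM. The difference between the libraries was not tested. The albino members at or below 50000 UMIs had 0 Tyrobp UMIs in 27 cells.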

How the results depend on the processing

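Shares and counts depended on depth and on the selection count, and the cause was not tested beyond these settings. The pigmented share of 1.48% became 0.969% at 5 or more selection UMIs, 0.816% after thinning to 5000 UMIs and 0.459% at 20 or more. The albino share of 1.34% became 0.712%, 0.560% and 0.370% under the same settings and 0.777% without barcodes above 50000 UMIs. The 264 genes higher in members became 430 with cells weighted equally, 172 without the top cell of each library, 135 at 50 or more UMIs and 533 in strong cells. The 533 lower genes became 188 after thinning and 337 at 50 or more UMIs. The 548 genes higher in albino members became 72 after thinning, 293 at 50 or more UMIs and 250 without deep barcodes. The 2238 lower ones became 1079 at 5 or more selection UMIs, 174 after thinning, 839 with cells weighted equally, 1356 at 50 or more UMIs, 314 without deep barcodes and 188 in strong cells.

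In the albino library, the log2 median of the melanin list moved from 0.86 to 3.78 after thinning, and that of RPE function from 0.45 to 1.29 after thinning and 1.38 in strong cells. That of the ciliary margin turned from 0.10 to -0.032 at 3 or more selection UMIs. Single genes changed sign in the albino library (log2 ratio, members over others): Hps4 was 0.40 thinned, 0.0067 without deep barcodes and 0.24 in strong cells. Nr2f1 was 0.11 without deep barcodes, and Pax3 was 0.019 in strong cells. Sox9 was 1.09 thinned and 0.48 in strong cells. Kit was 1.53 thinned, 0.29 without deep barcodes and 0.46 in strong cells. Crabp1, albino over pigmented, was -0.66, -1.61 and -1.26 under those 3 settings. A change of sign was looked for only in the 97 of 146 values of named genes that were at least 2-fold in the main run. Of the 146, 140 had no such change under any setting, and smaller values were not checked for sign. The 3 or more selection UMIs, 1000-gene, 5% mitochondrial, Scrublet, 10-UMI and scaling settings moved no count of genes by over 1.5 times. No paired analysis was possible because each group is 1 library. Zero counts and ratios against 1 to 3 UMIs are limited by the 40 strong cells.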
